A study of Mus musculus with 6 samples.

Results

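The inhibitory interneurons of the cerebellar cortex were followed through 9 genes in whole-cerebellum RNA: Gad1, Gad2, Slc32a1, Slc6a5, Grm2, Lgi2, Kit, Sorcs3 and Pax2. They were taken as a named list of GABAergic and glycinergic interneuron genes and not by a cut-off on their measured values. Earlier results of these data were known when the list was chosen. The 9 are among the 46983 genes counted. All 9 had enough reads to be tested, as had 16851 genes in all. The study compared 3 libraries from mice labelled Slc7a5-KO (Tie2-Cre with both Slc7a5 alleles floxed) with 3 from mice labelled WT (Tie2-Cre with a single floxed allele), at postnatal day 60 on a C57BL/6J background. Both groups carry the recombinase, whose Tie2 promoter is active in endothelial and blood lineages, and the WT animals keep 1 allele without loxP sites. The question is what loss of the amino acid transporter LAT1, the product of Slc7a5, from brain vessels does to the cerebellum. None of the 9 genes changed past the test's threshold, which 0.0475% of all genes tested passed. For 5 of the 9 the 95% interval excluded a change of 1.5-fold in either direction, as it did for 37% of all genes tested.

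Golgi cells lie in the granular layer and inhibit granule cells with GABA and glycine. Basket and stellate cells lie in the molecular layer and inhibit Purkinje cells and each other with GABA. Both kinds arise from precursors that switch on Pax2. Glutamate decarboxylases make GABA, the vesicular transporter encoded by Slc32a1 loads GABA and glycine into synaptic vesicles, and the plasma membrane transporter encoded by Slc6a5 supplies glycine to glycinergic terminals. Purkinje cells and neurons of the deep nuclei and brainstem also use several of these genes. In RNA from bulk tissue, fewer cells of a type and less RNA per cell cannot be told apart.

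Depth was 13438182 to 31077690 gene reads in the libraries labelled Slc7a5-KO, with replicate 3 the shallowest of all 6, and 27672205 to 34160856 gene reads in the WT libraries. Levels are given as CPM, the read count of a gene relative to the TMM-scaled total of its library, and differences as log2 fold changes of the libraries labelled Slc7a5-KO over WT with their standard errors. Slc7a5 itself, summed over the whole gene, averaged 114 ± 52.7 CPM in libraries labelled Slc7a5-KO and 60.5 ± 15.3 CPM in WT (SD, n = 3 each). Its log2 fold change was 0.91 ± 0.42 (edgeR adjusted p = 0.84), and 1.22 without Slc7a5-KO replicate 2 (edgeR adjusted p = 0.010). The transcript was thus not lower where the label says the gene is deleted, so directions below follow the labels only. Xist and Y-linked reads marked 2 libraries as female and 1 as male among those labelled Slc7a5-KO, and 1 as female and 2 as male among WT.

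Per kilobase of exon, mean levels over the 6 libraries were highest for Slc32a1, at 81.8 CPM per kilobase. They followed at 45.2 for Gad1, 33.2 for Gad2, 24.2 for Kit, 14.4 for Lgi2, 12.5 for Slc6a5, 4.06 for Grm2, 3.00 for Sorcs3 and 1.24 CPM per kilobase for Pax2. The lowest library of Slc32a1 (64.0) lay above the highest of Gad1 (54.5), the lowest of Slc6a5 (5.64) above the highest of Grm2 (4.68), and the lowest of Sorcs3 (2.11) above the highest of Pax2 (1.94). The other neighbours in this order, including Gad1 and Gad2, overlapped between libraries.

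Gad1 and Gad2, which encode the glutamate decarboxylases that make GABA, were at similar levels in both groups. Gad1 stood at 416, 260.1 and 371 CPM in replicates 1 to 3 of the libraries labelled Slc7a5-KO, against 389.8, 315 and 317 CPM in the WT libraries. The groups overlapped, with both the highest and the lowest library among those labelled Slc7a5-KO, and the log2 fold change was 0.04 ± 0.16 (95% interval -0.30 to 0.37, edgeR adjusted p = 0.99). Gad2 stood at 176, 211 and 243 CPM in libraries labelled Slc7a5-KO, against 176, 163 and 201 CPM in WT. Its log2 fold change was 0.22 ± 0.14 (95% interval -0.07 to 0.51, edgeR adjusted p = 0.88), and the groups overlapped. On GRCm38, Gad1 lies on chromosome 2 from 70553072 to 70602014 and Gad2 on chromosome 2 from 22622205 to 22693874, both protein-coding and on the plus strand.

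Slc32a1, the vesicular transporter shared by GABA and glycine neurons, varied least between its highest and lowest library of the 9 genes, by 1.39-fold. It stood at 179, 243 and 236 CPM in libraries labelled Slc7a5-KO, against 249.6, 245 and 221 CPM in WT. Only Slc7a5-KO replicate 1 lay below the WT libraries, and the log2 fold change was -0.12 ± 0.13 (95% interval -0.40 to 0.16, edgeR adjusted p = 0.96). The gene lies on chromosome 2 from 158610767 to 158615748, plus strand. The log2 ratio of Gad2 to Gad1, a measure of the balance between the decarboxylases, averaged -0.72 ± 0.48 in the libraries labelled Slc7a5-KO and -0.92 ± 0.25 in WT (SD, n = 3 each). The difference of 0.20 gave a 2-sided exact permutation p of 0.6, or 0.9 after Benjamini-Hochberg adjustment over 3 ratios, where 0.1 is the smallest p that 3 against 3 allows. Leaving out Slc7a5-KO replicate 1 gave 0.46, and leaving out Slc7a5-KO replicate 2 gave -0.0087.

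**Figure D1:**
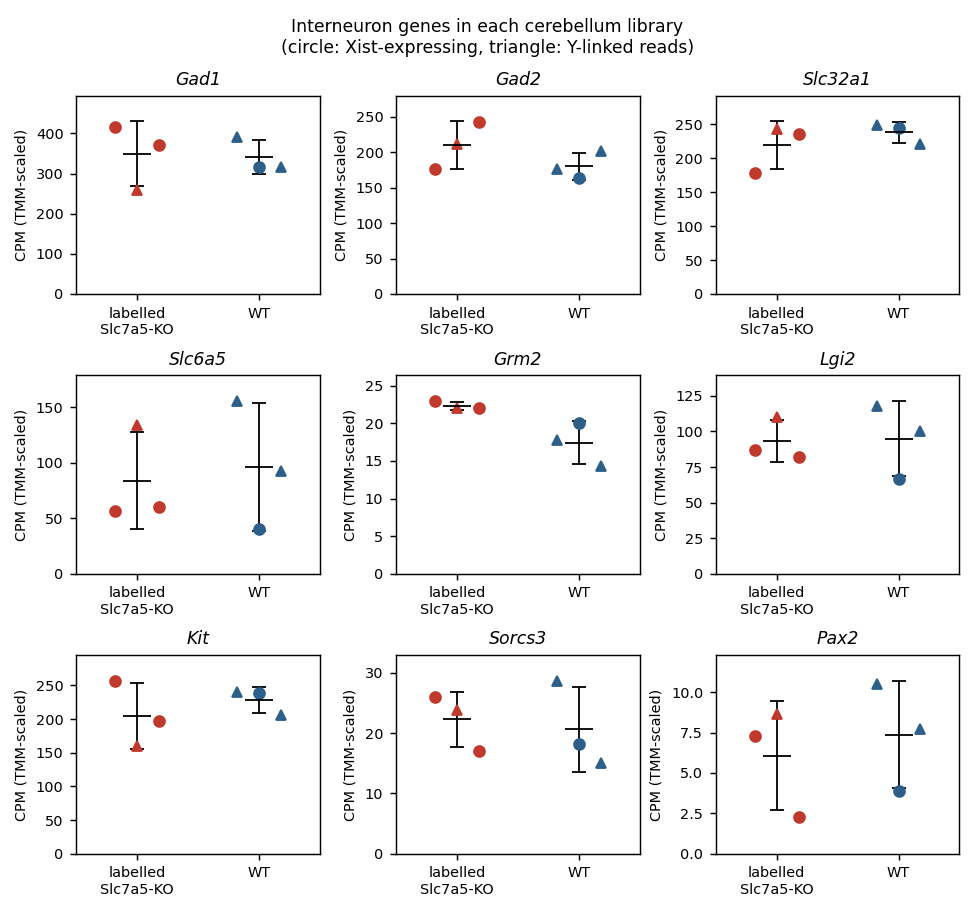
CPM of the 9 interneuron genes in each library, with libraries labelled Slc7a5-KO at left and WT at right. Points are single libraries (circles with Xist, triangles with Y-linked reads), and bars show the mean and SD of 3. Grm2 has no overlap between groups, at 21.98 to 22.9 CPM against 14.4 to 20.1 CPM, and the other 8 genes overlap.

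Slc6a5, which encodes the glycine transporter of glycinergic terminals and in cerebellar cortex marks Golgi cells, spread widely inside both groups. It stood at 56.6, 134 and 60.6 CPM in libraries labelled Slc7a5-KO, against 155, 40.6 and 92.9 CPM in WT. Highest and lowest values were both WT libraries, 3.82-fold apart, and the log2 fold change was -0.20 ± 0.66 (95% interval -2.00 to 1.61, edgeR adjusted p = 0.99). The interval runs from a fold change of 0.249 to 3.04, so a difference of 2-fold either way was not detectable in these libraries. The pooled SD of log2 CPM inside groups was 0.85 for Slc6a5, larger than in 99.6% of the 9883 tested genes with a mean of at least 10 CPM, whose median was 0.20. The log2 ratio of Slc6a5 to Slc32a1 averaged -1.49 ± 0.57 in the libraries labelled Slc7a5-KO and -1.51 ± 0.98 in WT (SD, n = 3 each), a difference of 0.016 (2-sided exact permutation p = 1) that was -0.52 without WT replicate 2 and 0.43 without WT replicate 1. Slc6a5 lies on chromosome 7 from 49910146 to 49963856, plus strand.

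Lgi2 and Pax2 followed the same order of libraries as Slc6a5 at the top. Lgi2, which encodes a secreted leucine-rich repeat protein found in Golgi cells, stood at 87.3, 110.2 and 82.3 CPM in libraries labelled Slc7a5-KO, against 118, 66.3 and 100.4 CPM in WT (log2 -0.02 ± 0.18, 95% interval -0.41 to 0.36, edgeR adjusted p = 1.00). Pax2, a transcription factor of interneuron precursors that persists in Golgi cells, stood at 7.28, 8.67 and 2.28 CPM in libraries labelled Slc7a5-KO, against 10.5, 3.90 and 7.75 CPM in WT (log2 -0.26 ± 0.44, 95% interval -1.19 to 0.66, edgeR adjusted p = 0.98). Both genes overlapped between groups, and for each the 3 highest libraries were WT replicates 1 and 3 and Slc7a5-KO replicate 2, as for Slc6a5. Pax2 rested on as few as 31 reads, in Slc7a5-KO replicate 3. Lgi2 lies on chromosome 5 from 52533517 to 52566462, minus strand, and Pax2 on chromosome 19 from 44756045 to 44837871, plus strand.

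The promoters of these 3 genes are shown because their levels shared this library order, with that of the steadier Slc32a1 for contrast. Each window is the one listed by RefSeq (GRCm38.p6) that lies nearest the annotated gene start, and holds 250 bases before the transcript start and 50 after it. Capitals mark matches on either strand to any of 3 motifs. The E-box was searched as CAGCTG. Letters for the TATA box were TATAAA. The GC box was taken as GGGCGG, and no matches overlap in these windows.
Slc6a5, chr7:49910049-49910348, plus strand: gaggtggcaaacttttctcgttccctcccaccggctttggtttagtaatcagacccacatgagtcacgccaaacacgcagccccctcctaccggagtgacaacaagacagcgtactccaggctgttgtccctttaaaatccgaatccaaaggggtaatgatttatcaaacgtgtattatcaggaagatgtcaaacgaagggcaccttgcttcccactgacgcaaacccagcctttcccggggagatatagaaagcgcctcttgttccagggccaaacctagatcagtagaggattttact
Lgi2, chr5:52566257-52566556, minus strand: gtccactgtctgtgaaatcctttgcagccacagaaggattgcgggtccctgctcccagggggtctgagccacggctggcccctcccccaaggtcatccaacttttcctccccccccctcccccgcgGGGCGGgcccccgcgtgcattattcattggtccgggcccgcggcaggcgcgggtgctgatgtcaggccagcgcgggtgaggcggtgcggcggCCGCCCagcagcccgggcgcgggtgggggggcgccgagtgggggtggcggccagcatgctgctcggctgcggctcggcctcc
Pax2, chr19:44755502-44755801, plus strand: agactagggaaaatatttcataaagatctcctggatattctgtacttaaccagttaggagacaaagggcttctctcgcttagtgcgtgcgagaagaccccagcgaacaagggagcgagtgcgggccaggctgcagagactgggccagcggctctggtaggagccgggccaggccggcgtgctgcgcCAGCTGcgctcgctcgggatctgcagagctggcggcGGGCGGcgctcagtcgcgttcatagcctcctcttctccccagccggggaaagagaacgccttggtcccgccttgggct
Slc32a1, chr2:158610508-158610807, plus strand: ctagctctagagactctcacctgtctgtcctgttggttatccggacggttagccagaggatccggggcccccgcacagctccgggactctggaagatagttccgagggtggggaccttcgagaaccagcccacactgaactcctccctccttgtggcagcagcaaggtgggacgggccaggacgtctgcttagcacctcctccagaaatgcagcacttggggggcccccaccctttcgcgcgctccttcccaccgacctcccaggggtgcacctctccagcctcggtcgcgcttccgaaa
The E-box was found once, in the Pax2 window, and GC boxes numbered 2 in the Lgi2 window and 1 in that of Pax2. The windows of Slc6a5 and Slc32a1 held none of the 3 motifs. The G and C share was 49.7% for Slc6a5, 73.3% for Lgi2, 61.7% for Pax2 and 63.3% for Slc32a1, beside a median of 52.7% over 32817 RefSeq promoter windows of the same length. Of those windows, 16.3% held the E-box, 13.6% the TATA box and 35.6% the GC box.

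Hindbrain Hox genes were highest in the same libraries as Slc6a5, and other brainstem markers were not all so. Summed over 15 Hox genes, which mark hindbrain behind the cerebellum, reads came to 2.17, 12.1 and 3.68 CPM in libraries labelled Slc7a5-KO, against 29.0, 2.27 and 10.03 CPM in WT. The 3 highest libraries were again WT replicates 1 and 3 and Slc7a5-KO replicate 2. Glra1, a glycine receptor subunit abundant in brainstem and spinal cord, had the same 3 libraries on top and averaged 16.8 ± 8.95 CPM in libraries labelled Slc7a5-KO and 20.2 ± 12.9 CPM in WT (log2 -0.27 ± 0.76, edgeR adjusted p = 0.99). This order was held by 3 of the 9 interneuron genes, by 7 of 14 tested genes of the brainstem and deep nuclei list and by 6.4% of all genes tested. These 3 libraries are also the 3 from males, so sex and the level of Hox genes cannot be told apart, and the part of either in the levels of Slc6a5, Lgi2 and Pax2 was not tested. Over the whole list of 20 brainstem and deep nuclei genes, the summed level was 109, 175 and 158 CPM in libraries labelled Slc7a5-KO, against 146, 93.2 and 135 CPM in WT. In that sum Slc7a5-KO replicate 3, a female library, ranked second, above WT replicates 1 and 3. Most of the sum was Slc17a6, a gene of deep nuclei neurons, at 92.1, 110.6 and 121 CPM in libraries labelled Slc7a5-KO. In WT Slc17a6 stood at 85.6, 77.7 and 103 CPM, so the order of the sum says little on the other genes of the list. Hoxb7 was at 0 in every library.

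**Figure D2:**
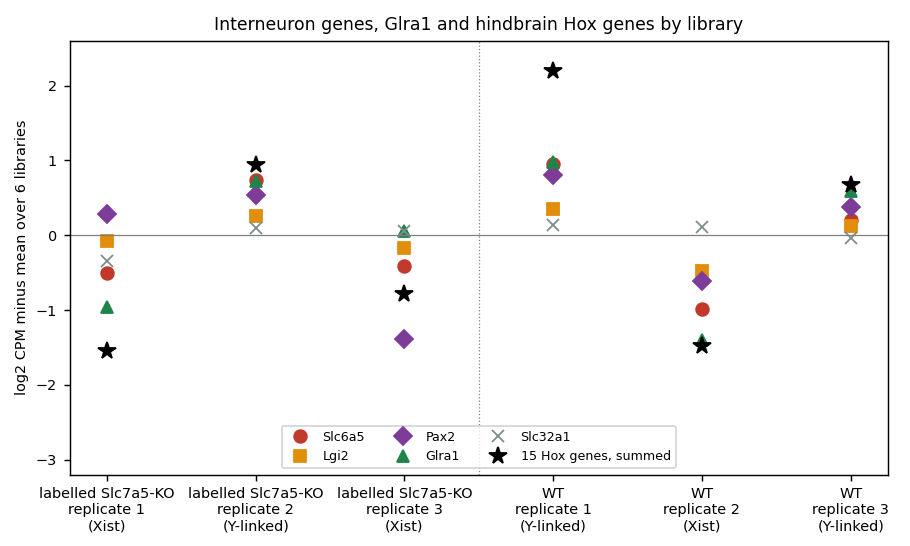
log2 CPM minus the mean over the 6 libraries (y axis) for Slc6a5, Lgi2, Pax2, Glra1 and Slc32a1 and for the sum of 15 Hox genes, by library (x axis), with libraries labelled Slc7a5-KO left of the dotted line and WT right of it. Slc6a5, Lgi2, Pax2, Glra1 and the Hox sum are highest in WT replicates 1 and 3 and Slc7a5-KO replicate 2, the libraries with Y-linked reads. Slc32a1 varies least of those shown between its highest and lowest library, by 1.39-fold.

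Compared within a sex, the direction of several genes differed from the pooled value. In females (2 labelled Slc7a5-KO, 1 WT), the log2 difference between group means was 0.53 for Slc6a5, 0.35 for Lgi2 and 0.07 for Pax2. In males (1 labelled Slc7a5-KO, 2 WT) it was 0.16 for Slc6a5, 0.018 for Lgi2 and -0.06 for Pax2. With sex as a term in the edgeR fit, log2 fold changes were 0.32 for Slc6a5, 0.18 for Lgi2 and 0.12 for Pax2, all above 0 where the pooled values were below it, and none passed the threshold. Gad1 was 0.32 in females and -0.43 in males, and a test of the interaction of sex and label, chosen after the data were seen, gave -0.76 (edgeR adjusted p = 0.38). In that test 2 of the 4 combinations of sex and label hold 1 library each, so it says little on whether the sexes differed. Kit was -0.08 in females and -0.48 in males, and Slc32a1 -0.25 in females and 0.047 in males. Grm2 (0.16 in females, 0.46 in males), Gad2 (0.34 in females, 0.17 in males) and Sorcs3 (0.21 in females, 0.19 in males) had 1 direction in both.

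Grm2, the metabotropic glutamate receptor by which Golgi cells (and unipolar brush cells) respond to granule cell and mossy fibre glutamate, was the 1 gene of the 9 whose groups did not overlap. It stood at 22.9, 22.1 and 21.98 CPM in libraries labelled Slc7a5-KO, against 17.8, 20.1 and 14.4 CPM in WT. All 3 libraries labelled Slc7a5-KO were higher than all 3 WT libraries, and the log2 fold change was 0.36 ± 0.20 (95% interval -0.06 to 0.78, edgeR adjusted p = 0.85), which did not pass. Separation without overlap was seen in 11.5% of all genes tested (5.93% with the libraries labelled Slc7a5-KO above WT, 5.54% below), close to the share of 1 in 9 here. The counting intervals of the closest libraries overlapped. Slc7a5-KO replicate 3 had 299 reads of Grm2, with a 95% exact Poisson interval of 19.6 to 24.6 CPM, and WT replicate 2 had 556 reads, with 18.4 to 21.8 CPM. These intervals cover counting error only. Grm2 lies on chromosome 9 from 106643095 to 106656082, minus strand.

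Kit and Sorcs3, genes of basket and stellate cells, did not pass the test either. Kit encodes the receptor tyrosine kinase for stem cell factor, which Purkinje cells make. It stood at 256, 159 and 197 CPM in libraries labelled Slc7a5-KO, against 239.5, 238 and 205 CPM in WT. The libraries labelled Slc7a5-KO held both the highest and the 2 lowest values, and the log2 fold change was -0.16 ± 0.15 (95% interval -0.47 to 0.16, edgeR adjusted p = 0.95). Leaving out Slc7a5-KO replicate 1 gave -0.35, and leaving out Slc7a5-KO replicate 2 gave -0.0068. Sorcs3, a sorting receptor of the sortilin family, stood at 25.9, 23.7 and 17.1 CPM in libraries labelled Slc7a5-KO, against 28.6, 18.2 and 15.1 CPM in WT. The groups overlapped over nearly their whole range (log2 0.11 ± 0.24, 95% interval -0.39 to 0.62, edgeR adjusted p = 0.98). Kit lies on chromosome 5 from 75574916 to 75656722 and Sorcs3 on chromosome 19 from 48206025 to 48805505, both on the plus strand.

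The log2 ratio of Kit to Grm2, which sets a molecular layer gene against a Golgi cell gene inside each library, was lower in all 3 libraries labelled Slc7a5-KO. It was 3.48, 2.85 and 3.16 in those libraries, against 3.74, 3.56 and 3.83 in WT. Group means were 3.16 ± 0.32 in the libraries labelled Slc7a5-KO and 3.71 ± 0.14 in WT (SD, n = 3 each), a difference of -0.55. The 2-sided exact permutation p was 0.1, the smallest that 3 against 3 allows, and 0.3 after Benjamini-Hochberg adjustment over the 3 ratios. A p under 0.05 was out of reach for any ratio, so this test cannot decide whether the groups differed.

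**Figure D3:**
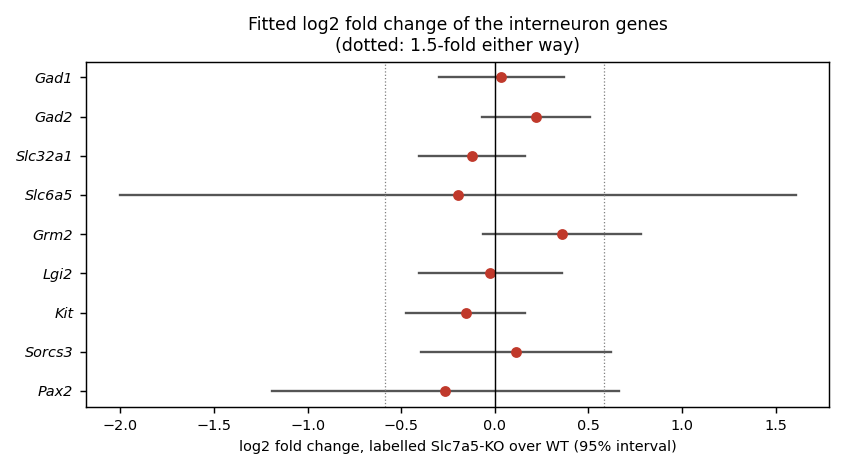
Fitted log2 fold change of each interneuron gene, libraries labelled Slc7a5-KO over WT (x axis), with its 95% interval as a line and 1.5-fold changes as dotted lines. All 9 intervals cross 0, those of Gad1, Gad2, Slc32a1, Lgi2 and Kit stay within 1.5-fold, and that of Slc6a5 is the widest, from -2.00 to 1.61.

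Across the 9 genes, 4 fitted log2 fold changes were above 0 and 5 below, where 50.3% of all genes tested were above it, with a median of -0.02 beside 0.0022 over all genes tested. By edgeR, 0 of 9 passed an adjusted p of 0.05, where 0.0475% of the 16851 genes tested did (8 genes, all higher). DESeq2 called 0 of 9, beside 0.299% of all genes (0.259% higher, 0.0399% lower), and limma-voom 0 of 9, beside 0.0356%. An unadjusted p under 0.05 was reached by 0 of the 9 with edgeR, DESeq2 or limma-voom, where 6.22% of all genes reached it with edgeR (3.45% higher, 2.77% lower). The count over all genes was 20 without Slc7a5-KO replicate 1 or 2, 5 without Slc7a5-KO replicate 3 or WT replicate 1, and 3 without WT replicate 3. The 95% interval lay within 1.5-fold either way for 5 of the 9 genes and within 2-fold for 7, against 37% and 63.4% of all genes tested. The intervals hold for each gene taken alone. In the authors' deposited table of the same comparison, the unshrunken log2 fold changes of the 9 genes ran from -0.27 for Pax2 to 0.35 for Grm2, with adjusted p of 0.44 for Grm2 and 0.57 to 0.98 for the others. The unadjusted p for Grm2 in the authors' deposited table was 0.048, the 1 value under 0.05 among the 9.

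Genes that work with the 9 did not pass the test either. Of 12 partner genes (ligands, binding partners and paralogs), 0 passed by edgeR, DESeq2 or limma-voom. At an unadjusted edgeR p under 0.05, 1 was higher and 1 lower, beside 3.45% and 2.77% of all genes tested. The median log2 fold change of the 12 was -0.05, and -0.15 without Slc7a5-KO replicate 2. Kitl, the ligand of Kit, averaged 79.5 ± 18.7 CPM in libraries labelled Slc7a5-KO and 118 ± 38.9 CPM in WT (log2 -0.56 ± 0.23, edgeR adjusted p = 0.75), and it passed only when the filter on low counts was dropped (edgeR adjusted p = 0.045). Sorcs1, a paralog of Sorcs3, averaged 21.0 ± 1.17 CPM in libraries labelled Slc7a5-KO and 15.1 ± 3.36 CPM in WT without overlap (log2 0.48 ± 0.22, edgeR adjusted p = 0.78). Adam11, of the transmembrane family that binds Lgi proteins, had -0.16 ± 0.12 (edgeR adjusted p = 0.93), with all 3 libraries labelled Slc7a5-KO below WT. Groups without overlap thus numbered 2 of 12, 1 in each direction, beside 11.5% of all genes tested.

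GABA uptake and turnover genes gave 0 of 12 past the threshold by edgeR, DESeq2 or limma-voom, with a median of 0.09. At an unadjusted edgeR p under 0.05, 1 was higher, beside 3.45% of all genes tested. Slc6a11, the astrocytic GABA transporter, averaged 579 ± 165 CPM in libraries labelled Slc7a5-KO and 396 ± 95.3 CPM in WT with overlap (log2 0.55 ± 0.22, edgeR adjusted p = 0.75). It too passed only without the filter on low counts (edgeR adjusted p = 0.041). Slc38a5, a glutamine transporter, had 0.64 ± 0.39, and 0.079 without Slc7a5-KO replicate 3, and Slc1a1, the neuronal glutamate transporter that also feeds GABA synthesis, had 0.28 ± 0.18 (edgeR adjusted p = 0.86 and 0.88).

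Glycine handling and glycinergic synapse genes gave 0 of 10 past the threshold by edgeR, DESeq2 or limma-voom, 0 at an unadjusted edgeR p under 0.05, and a median of 0.00056. Slc6a9, the glycine transporter of astrocytes, averaged 174 ± 29.3 CPM in libraries labelled Slc7a5-KO and 159.8 ± 22.0 CPM in WT (log2 0.13 ± 0.15, edgeR adjusted p = 0.96). Gphn, which encodes the scaffold gephyrin of inhibitory synapses, had -0.29 ± 0.18 (edgeR adjusted p = 0.88). The shared receptor subunit gene Glrb had -0.17 ± 0.13 and the low-level subunit gene Glra3 0.42 ± 0.36 (edgeR adjusted p = 0.92 and 0.94).

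Of 16 further interneuron genes, 15 had enough reads to be tested and 0 passed by edgeR. At an unadjusted edgeR p under 0.05, 3 were higher, where 3.45% of all genes tested were. Groups did not overlap for 5 of the 15, 4 of them higher in the libraries labelled Slc7a5-KO. Over all genes tested, 11.5% did not overlap, and 5.93% had those libraries above WT. This list was chosen with earlier results of these data known, so its shares are no test of interneuron genes as a group. Sst, the neuropeptide somatostatin found in a subset of Golgi cells, stood at 55.0, 100.2 and 74.7 CPM in libraries labelled Slc7a5-KO, against 44.2, 39.8 and 45.5 CPM in WT. All 3 libraries labelled Slc7a5-KO lay above WT, and the log2 fold change was 0.83 ± 0.18 (95% interval 0.45 to 1.21, edgeR adjusted p = 0.18). Nrgn, the calmodulin-binding protein neurogranin, which in cerebellum also marks Golgi cells, stood at 51.8, 73.4 and 64.5 CPM in libraries labelled Slc7a5-KO, against 35.5, 44.0 and 34.3 CPM in WT. Its groups were likewise apart (log2 0.74 ± 0.17, 95% interval 0.39 to 1.08, edgeR adjusted p = 0.19). Nxph1, which encodes the secreted neurexin ligand neurexophilin and marks a subset of molecular layer interneurons, had 0.44 ± 0.20 (edgeR adjusted p = 0.78).

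Calls for Sst and Nrgn depended on the tool and on the filter. DESeq2 called both higher, with adjusted p of 0.022 for Sst and 0.028 for Nrgn, where it called 0.299% of the 15052 genes it adjusted, and limma-voom called neither. In the authors' deposited table both had an adjusted p of 0.0024, with unshrunken log2 fold changes of 0.82 for Sst and 0.73 for Nrgn. Without the filter on low counts, edgeR itself called both, with adjusted p of 0.00034 for Sst and 0.0069 for Nrgn. That setting raised edgeR calls over all genes from 8 to 71. Sst also passed by edgeR with a sex term (adjusted p = 0.035) and without Slc7a5-KO replicate 1 (adjusted p = 0.014). It did not pass with any other library left out, and had 0.58 without Slc7a5-KO replicate 2 (edgeR adjusted p = 0.44). With a replicate block the edgeR adjusted p of Sst was 0.25. Both are also expressed in neurons outside the cerebellum. Markers of forebrain and midbrain GABA neurons summed to 18.4 to 31.3 CPM in libraries labelled Slc7a5-KO and 10.5 to 13.8 CPM in WT. Most of the sum was Gata2, Gata3, Tal1 and Sox14. The part of such neurons in the levels of Sst, Nrgn and Gad2 was not tested.

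**Figure D4:**
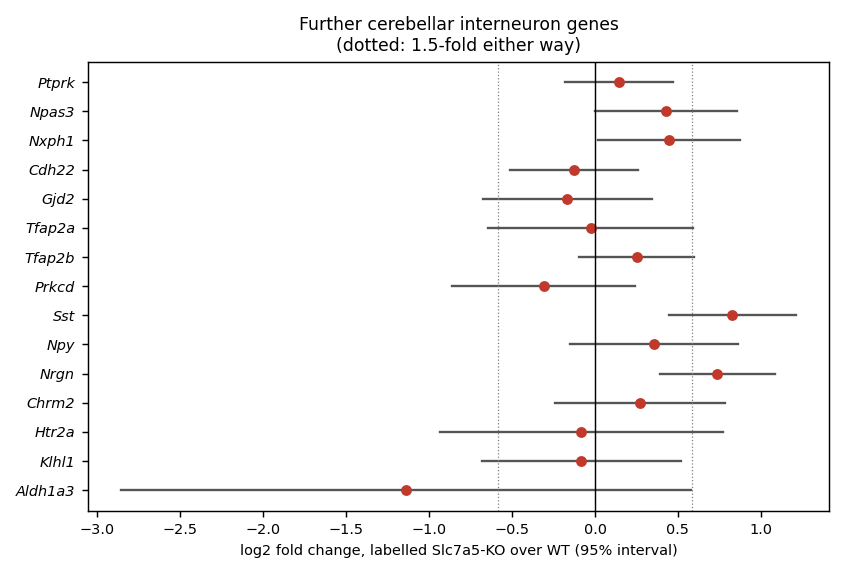
Fitted log2 fold change of 15 further cerebellar interneuron genes, libraries labelled Slc7a5-KO over WT (x axis), with 95% intervals as lines and 1.5-fold changes as dotted lines. Sst (0.83) and Nrgn (0.74) lie farthest right, Aldh1a3 has the widest interval, and no gene passed the edgeR threshold over all genes.

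Of the 9 forebrain and midbrain GABA neuron markers, 4 could be tested, all 4 above 0, and 0 passed by edgeR, DESeq2 or limma-voom. At an unadjusted edgeR p under 0.05, 3 were higher. Over all genes tested, 50.3% were above 0 and 3.45% were higher at that p. This list was chosen with earlier results of these data known, so its shares are no test. Tal1 had 1.05 ± 0.42 and Sox14 1.68 ± 0.70, and Gata3 averaged 6.93 ± 3.64 CPM in libraries labelled Slc7a5-KO and 3.21 ± 0.827 CPM in WT (edgeR adjusted p = 0.73, 0.75 and 0.68). They encode transcription factors of midbrain and hindbrain GABA neurons, and which cells these reads come from was not tested. The forebrain interneuron genes Dlx1, Dlx2, Dlx5, Dlx6 and Lhx6 were too low to test. In the brainstem and deep nuclei list, 14 of 20 genes could be tested and 0 passed by edgeR, DESeq2 or limma-voom (0 at an unadjusted edgeR p under 0.05). Slc17a6, the vesicular glutamate transporter of deep nuclei neurons, had 0.28 ± 0.15, and the low Hoxa5 and Hoxb5 had -2.62 ± 1.54 and -1.83 ± 1.23 (edgeR adjusted p = 0.83, 0.86 and 0.89).

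Purkinje cells use Gad1, Gad2 and Slc32a1 as well, so their markers are given beside these genes. Of 15 Purkinje markers, 13 were below 0, with a median log2 fold change of -0.34, and 0 passed by edgeR or limma-voom (6 lower at an unadjusted edgeR p under 0.05), while DESeq2 called 2 lower. Over all genes tested, 50.3% were above 0, 2.77% were lower at an unadjusted edgeR p under 0.05, and DESeq2 called 0.0399% lower. The summed level of the 15 markers ran from 4894 to 7018 CPM in libraries labelled Slc7a5-KO and from 6794 to 8564 CPM in WT. It was lowest in Slc7a5-KO replicate 2, which also had the lowest Gad1. In that library Gad2, at 211 CPM, lay above every WT library, and Slc32a1, at 243 CPM, lay inside the WT range. Rgs8 had -0.57 ± 0.13, Icmt -0.48 ± 0.12 and Pvalb, also a gene of basket and stellate cells, -0.48 ± 0.14 (edgeR adjusted p = 0.22, 0.29 and 0.47). DESeq2 called Rgs8 and Icmt, with adjusted p of 0.0015 and 0.014, and edgeR without the filter on low counts called Rgs8 (adjusted p = 0.026). The part of Purkinje cell RNA in the levels of Gad1, Gad2 and Slc32a1 was not tested.

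Markers of the remaining cell types that share genes with interneurons were checked too. Of 4 unipolar brush cell markers, which share Grm2 with Golgi cells, 0 passed by edgeR. At an unadjusted edgeR p under 0.05, 1 was higher and 1 lower, beside 3.45% and 2.77% of all genes tested. DESeq2 and limma-voom each called 1 higher, Calb2, at 1.20 ± 0.21 (edgeR adjusted p = 0.068). Without the filter on low counts, where edgeR calls over all genes rose from 8 to 71, Calb2 passed (adjusted p = 4.6e-13). It also passed by edgeR with library size alone (adjusted p = 0.048), with a sex term (0.027), and without Slc7a5-KO replicate 1 (0.019) or 2 (0.00027). It did not pass by edgeR with a replicate block (adjusted p = 0.18) or counts of both strands (0.063). Nor did it pass without Slc7a5-KO replicate 3 (0.15), WT replicate 1 (0.33) or WT replicate 2 (0.29). Calb2 was the 1 gene of the 4 above 0, and the other 3 were below it. Lmx1a had -1.58 ± 0.60 and Eomes, the defining transcription factor of these cells, -0.21 ± 0.28 (edgeR adjusted p = 0.70 and 0.97). Otx2 had -0.32 ± 0.70 (edgeR adjusted p = 0.99). Lmx1a rested on as few as 12 reads, in Slc7a5-KO replicate 2. Otx2 was also lowest in that library, at 2.13 CPM, as was the sum of choroid plexus markers given below. Whether the number of these cells differed between groups was not tested. The list summed to 432 to 868 CPM in libraries labelled Slc7a5-KO and 269 to 318 CPM in WT, most of it Calb2, and its part in the level of Grm2 was not tested. Mast cells and melanocytes, which also express Kit, had markers at 1.87 to 3.31 CPM in sum in the libraries labelled Slc7a5-KO and 1.47 to 4.26 CPM in WT. Of these 10 genes Fcer1a and Mlana were at 0 in every library, 2 could be tested, and neither Pmel (-0.06 ± 0.75) nor Dct (-0.37 ± 1.08) passed (edgeR adjusted p = 1.00 and 0.99).

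Granule neuron markers, which mark the cells that Golgi cells inhibit, gave 0 of 12 past the threshold by edgeR, DESeq2 or limma-voom. At an unadjusted edgeR p under 0.05, 1 was higher, beside 3.45% of all genes tested. Barhl1 had 0.64 ± 0.20, Gabra6 -0.54 ± 0.26 and Cbln3 -0.26 ± 0.19 (edgeR adjusted p = 0.55, 0.83 and 0.92). Choroid plexus markers, which gauge the dissection, summed to 31.1 CPM in Slc7a5-KO replicate 2 and to 2348 to 5639 CPM in the other libraries, and 0 of 8 passed by edgeR, DESeq2 or limma-voom (0 at an unadjusted edgeR p under 0.05). Kcne2 had -1.48 ± 1.47, Folr1 -1.11 ± 1.11 and Steap1 -0.98 ± 0.66 (edgeR adjusted p = 0.96, 0.96 and 0.91).

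The mean of the 9 genes, each as log2 CPM centred on its own mean, was 0.03, 0.14 and -0.19 in the libraries labelled Slc7a5-KO, against 0.31, -0.26 and -0.04 in WT. Among 11566 other genes with a mean of at least 5 CPM, Map4k2, Eif4e2, Anks1, Trak2 and Sertad4 had the library profile nearest to this mean over the 6 libraries. Their root mean square differences from it were 0.030, 0.037, 0.052, 0.055 and 0.055 on the log2 scale. Their log2 fold changes ran from -0.12 for Trak2 to 0.04 for Eif4e2, and none passed the edgeR threshold. The genes were picked for matching this mean in the same libraries, so fold changes near 0 follow from the choice and are no separate result.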

How the data were processed

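Messenger RNA of cerebellum was measured in 6 stranded libraries, 3 labelled Slc7a5-KO and 3 labelled WT. The labels do not say that each comes from a separate animal. Each group held male and female libraries, so at least 2 animals, and p-values measure the spread between these libraries, which may be technical in part. The deposited tables hold raw read counts per gene and strand, made with STAR 2.5.4 on GRCm38 (mm10), per the submitters' processing notes. The sources used here do not say which annotation was counted or whether PCR copies were removed. Multimapping reads are listed as 0, so near-identical copies are uncertain. The reverse-strand counts, 94.8% to 95.8% of stranded gene reads, were used. Reads in no gene or several genes, 19.5% to 22.2%, were left out.

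A further table holds the authors' own comparison (DESeq2 1.10.1 in R 3.2.4, per the submitters' processing notes). Per the file headers it gives a mean normalised signal, log2 fold changes, their standard errors, a Wald score, p-values and adjusted p-values.

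Symbols were matched for 46488 of 46983 identifiers. Coordinates and exon lengths come from GENCODE M21 (GRCm38). In R 4.3.3, edgeR 4.0.16 kept genes by filterByExpr (at least 10 reads in enough libraries, 15 in total), applied TMM scaling and ran the robust, 2-sided quasi-likelihood test. P-values were adjusted by Benjamini-Hochberg over every gene kept. Log2 CPM used a prior count of 2, and the plot of library patterns none. A ± gives the SD beside CPM and the standard error beside a fold change. The fit was also run on simulated counts, drawn independently for each gene. The outcome of that run is not given here, so it is no check on the results above. Alternatives were other scalings, no filter, both strands, DESeq2 1.42.0, limma-voom (limma 3.58.1), a replicate block, a sex term and leaving out each library. Named genes are the 9 genes and Slc7a5, up to 3 per other list by smallest p, 4 fixed by name (Kitl, Slc6a9, Glra1 and Gphn), and the 5 nearest profiles. A further gene fixed by name is not reported here. Members and lists were chosen with earlier results of these data known, and no set test was run.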

Additional observations from a re-analysis of the deposited data

How the results depend on the processing

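Under the 14 alternatives to the edgeR fit, 0 of the 9 interneuron genes were called, and the lowest adjusted p was 0.47, for Kit without Slc7a5-KO replicate 1. Leaving out 1 library at a time put the median of the 9 between -0.10 and 0.16. Over all genes, the 8 calls became 71 without the filter on low counts, 45 with DESeq2 and 16 with a sex term, and 3 to 20 with a library left out. The partner gene median was 0.0198 with counts of both strands, and -0.15 to -0.033 with a library left out. Slc7a5 ran from 0.55 to 1.22. Directions turned for genes with fold changes near 0 or a wide spread. With a sex term, Gad1 had -0.0608, Slc6a5 0.32, Lgi2 0.18, Pax2 0.12, Hoxb5 0.48, Glra1 0.45 and Anks1 0.017. With limma-voom, Lgi2 had 0.0085 and Pmel 0.11, and with both strands Map4k2 had -0.0052. The cause of these turns was not tested. With each library left out in turn, log2 fold changes ran from -0.11 to 0.21 for Gad1, -0.20 to 0.0062 for Slc32a1, -0.72 to 0.33 for Slc6a5, -0.22 to 0.16 for Lgi2, -0.0694 to 0.43 for Sorcs3 and -0.60 to 0.11 for Pax2. They ran from -0.74 to 0.18 for Glra1, -0.0416 to 0.75 for Glra3, -2.66 to 0.15 for Hoxb5, -1.09 to 0.0496 for Dct and -0.59 to 0.27 for Pmel. Those of Map4k2 ran from -0.11 to 0.16, Eif4e2 -0.0785 to 0.23, Anks1 -0.15 to 0.0726, Trak2 -0.25 to 0.0764 and Sertad4 -0.12 to 0.24. Gad2 (0.11 to 0.33), Grm2 (0.23 to 0.48) and Kit (-0.35 to -0.0068) kept their sign under every alternative run. The ratio differences ran from -0.52 to 0.43 for Slc6a5 over Slc32a1, -0.0087 to 0.46 for Gad2 over Gad1 and -0.71 to -0.39 for Kit over Grm2.

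The replicate numbers did not pair the libraries: same-numbered libraries had correlations of -0.08, -0.09 and -0.03 between their deviations, and 0 of 6 correlated best with its own number. A replicate block gave 6 calls over all genes and turned Lgi2 to 0.00060. With 3 libraries a group, precision was lowest for Slc6a5 and Pax2, whose libraries spread most, and Pax2 also rested on as few as 31 reads.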
